A study of Homo sapiens with 2 samples.

Results

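NeuroD1 ChIP-seq in IMR-32 cells gave 497 peaks that lie next to more than 1 gene at once, out of 6183 peaks in all (8.04%, 95% interval 7.37 to 8.74%). A peak was taken when its interval lay within 1 kb of an end of at least 2 different protein-coding genes of RefSeq GRCh38.p14, with a distance of 0 where the end was inside the peak. A further 2032 peaks (32.9%) lay within 1 kb of an end of 1 gene, and they serve as the comparison. The remaining 3654 peaks were farther than 1 kb from any end.

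IMR-32 is a neuroblastoma cell line with amplified MYCN, and the cells used were labelled wild type. ChIP-seq recovers chromatin fragments with an antibody against a protein, sequences them, and calls as peaks the stretches where reads exceed the local background. The peak list came from 1 ChIP library labelled with a NeuroD1 antibody, without a replicate, and 1 input library was not analysed here. The methods text in the supplement names an H3K27Ac antibody for ChIP-seq, and the list was used here as labelled. Other measures of NeuroD1 binding in the study were not analysed here. All values below therefore describe this library, no test between conditions was possible, and the intervals of reads, shares and medians cover counting error or the spread between peaks only.

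A pair of genes that start close together on opposite strands shares one stretch of DNA as the promoter of both, called a bidirectional promoter. Such promoters are common in the human genome, are often rich in CpG, and often serve housekeeping genes such as those of DNA repair, the cell cycle and mitochondria. NeuroD1 is a neuronal basic helix-loop-helix transcription factor that binds E-boxes, short sites of the form CANNTG. Its typical sites read CAGATG on one strand, while others read CAGCTG.

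The DNA under the summit, the position of highest signal, is shown for 7 of these peaks. Each lies between 2 starts that face away from each other. The first 5 are among the stronger peaks, and the last 2 were chosen because they hold an E-box of the typical kinds. Every sequence is the 101 bp centred on the summit, read on the plus strand of GRCh38.p14. Capitals mark the E-boxes CAGATG (either strand), CAGCTG and CATATG. They also mark the box CCAAT, common in promoters, and its reverse complement ATTGG.
C11orf68/DRAP1 (chr11:65919311-65919411, fold enrichment 27.5, gap between starts 364 bp): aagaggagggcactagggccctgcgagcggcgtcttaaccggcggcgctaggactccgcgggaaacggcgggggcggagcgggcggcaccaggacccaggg
POLE/PXMP2 (chr12:132687441-132687541, fold enrichment 24.1, gap between starts 245 bp): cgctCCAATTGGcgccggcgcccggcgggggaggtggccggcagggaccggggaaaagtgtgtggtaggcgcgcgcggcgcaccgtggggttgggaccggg
RNFT2/SPRING1 (chr12:116738134-116738234, fold enrichment 17.4, gap between starts 246 bp): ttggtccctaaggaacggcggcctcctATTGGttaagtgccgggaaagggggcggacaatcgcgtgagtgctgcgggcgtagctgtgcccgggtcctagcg
CENPX/LRRC45 (chr17:82023020-82023120, fold enrichment 12.5, gap between starts 427 bp): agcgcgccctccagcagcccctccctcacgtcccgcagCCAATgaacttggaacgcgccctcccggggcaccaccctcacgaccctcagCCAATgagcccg
XRCC3/ZFYVE21 (chr14:103715528-103715628, fold enrichment 12.5, gap between starts 359 bp): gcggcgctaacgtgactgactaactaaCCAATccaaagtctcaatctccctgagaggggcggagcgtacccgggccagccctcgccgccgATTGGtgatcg
CHP1/EXD1 (chr15:41231050-41231150, fold enrichment 11.6, gap between starts 511 bp): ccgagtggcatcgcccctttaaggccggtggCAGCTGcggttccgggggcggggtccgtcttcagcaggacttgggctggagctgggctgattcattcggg
ERP29/TMEM116 (chr12:112013302-112013402, fold enrichment 5.40, gap between starts 207 bp): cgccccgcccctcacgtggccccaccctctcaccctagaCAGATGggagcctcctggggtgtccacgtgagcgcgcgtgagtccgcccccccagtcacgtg
The C11orf68/DRAP1 window held none of the marked letters. In the POLE/PXMP2 window CCAAT and ATTGG overlap each other and also an E-box of another kind (CAATTG). CENPX/LRRC45 and XRCC3/ZFYVE21 held 2 of the CCAAT boxes each, RNFT2/SPRING1 held 1, and none of these 5 had a marked E-box. CAGCTG stood in the CHP1/EXD1 window and CAGATG in the ERP29/TMEM116 window, next to 3 further CANNTG matches.

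The 497 peaks were near the ends of 948 different genes. Of these peaks, 474 lay near 2 genes, 22 near 3 and 1 near 4. They formed 466 different gene sets, of which 29 had more than 1 peak (60 peaks together). MBTD1/UTP18 had 3, with fold enrichments of 10.8, 5.29 and 4.32, and CBX5/HNRNPA1 had 3 as well. The ends of 2 or more genes were inside the peak itself in 88 cases, 232 peaks held an end of 1 gene, and 177 held none. The bodies of the genes overlapped in 150 cases (30.2%). Predicted genes with LOC symbols took part in 27 peaks, and read-through genes, which join neighbouring genes in 1 transcript, in 21. The peaks were spread over 23 chromosomes, with 60 on chromosome 17, 54 on chromosome 19 and 49 on chromosome 1. As a share of the peaks at gene ends, they ranged from 8.33% on chromosome 18 (3 peaks) to 36.8% on chromosome 21 (7 peaks), and the intervals of these 2 chromosomes, 1.75 to 22.5% and 16.3 to 61.6%, overlapped.

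The strongest peak of the group stood far above the rest. It lay at EPS15, an adaptor of clathrin-mediated endocytosis, and OSBPL9, an oxysterol-binding protein-like lipid transfer protein (chr1:51519250-51519761). Its fold enrichment, which divides the ChIP signal at the summit by the local background after adding 1 to both, was 54.8 (95% interval 46.4 to 64.3), from 148 reads (125 to 174) over a width of 512 bp. Only 2 of all 6183 peaks had a higher fold enrichment. The peak covered the start of EPS15, with the summit 213 bp upstream of it. The annotated start of OSBPL9 was 1207 bp from the summit and inside the EPS15 gene body, since both genes overlap by 994 bp at their starts. The edge of the peak was 978 bp from the OSBPL9 start, just inside the limit of 1 kb. At 0.5 kb, or with the summit in place of the interval, the peak would count for EPS15 alone. The interval did not reach that of any other of the 497 peaks.

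The next values came down steadily and their intervals overlapped. The peak between C11orf68 and DRAP1, a subunit of the transcriptional repressor NC2, had a fold enrichment of 27.5 (20.9 to 35.5) with 56 reads and a width of 618 bp. Next was the peak at MEMO1 and DPY30, a subunit of histone H3 lysine methyltransferase complexes, at 25.8 (19.6 to 33.3). The peak between POLE, the catalytic subunit of DNA polymerase epsilon, and PXMP2, a peroxisomal membrane protein, reached 24.1 (17.9 to 31.7) with 49 reads. VSNL1, a neuronal calcium sensor, and RAD51AP2 had a peak of 21.6 between starts that are 2113 bp apart. Its edges were 791 bp from the VSNL1 start and 962 bp from the RAD51AP2 start, so it too lay near the limit. The peak at the start of MGAT4B, a Golgi glycosyltransferase, and close to SQSTM1, the autophagy receptor p62, had 20.7. ARID1A, a subunit of the SWI/SNF chromatin remodeller, and the predicted LOC124900417 had 20.2, as had ELP2, an Elongator subunit, with the zinc transporter SLC39A6. These peaks ranged from 318 to 618 bp in width, apart from ELP2/SLC39A6 with 644 bp.

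The peaks that followed in rank lay at CASKIN2 and the tRNA splicing endonuclease subunit TSEN54 (17.9, with 72 reads over a local background of 3.0), at ERAP1 and LNPEP (17.8), at RNFT2 and SPRING1 (17.4), and at MKKS and SLX4IP (17.3). ERAP1 and LNPEP encode aminopeptidases of the same family, and the summit lay 147 bp upstream of ERAP1 and 79 bp upstream of LNPEP. A second peak at this pair, with 15.4, had its summit 613 bp inside ERAP1. Both ERAP1/LNPEP peaks also counted the predicted LOC124901030, and the MKKS/SLX4IP peak counted 2 LOC genes, which made it the peak with 4 genes. Among the 23 peaks with 3 or more genes the median fold enrichment was 6.74 (5.79 to 8.20), beside 6.75 (6.56 to 7.15) for the 474 with 2 genes. The peak at ERCC1, a nucleotide excision repair endonuclease subunit, POLR1G and PPP1R13L had 14.5. It lay at the starts of POLR1G and PPP1R13L and 695 bp from the far end of ERCC1.

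**Figure D1:**
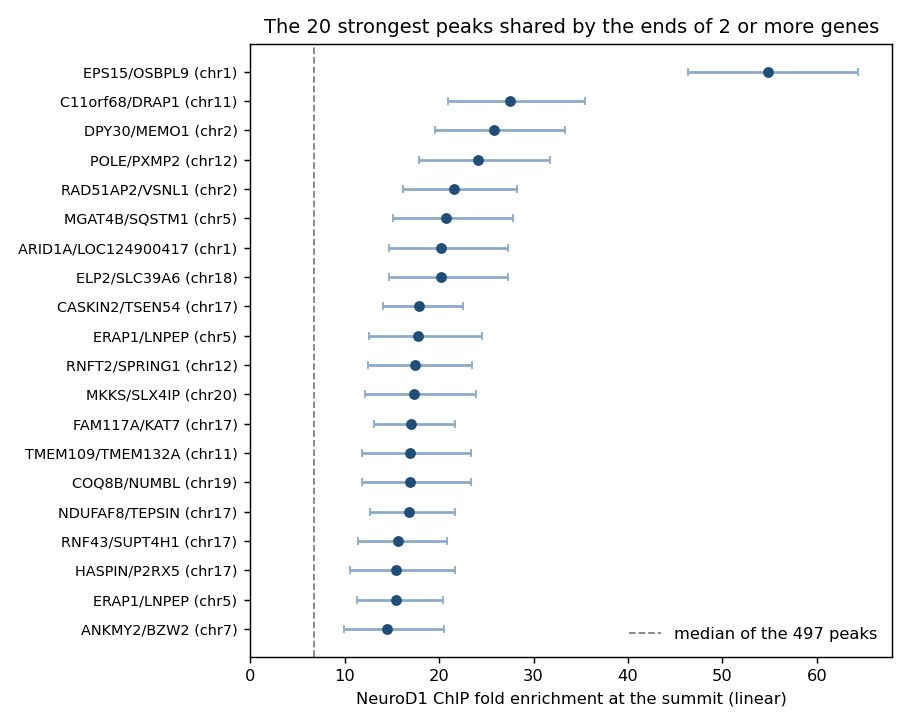
Fold enrichment at the summit (x axis, linear) of the 20 strongest of the 497 peaks, named by their genes and chromosome, with LOC genes left out of the names where 2 other genes remain. Points are the deposited values, bars are 95% Poisson intervals of the solved reads with the local background held fixed, and the dashed line is the median of 6.75. EPS15/OSBPL9 stands apart at 54.8, and the other 19 lie between 14.5 and 27.5.

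At the other end, ATRAID/SLC5A6 and BLOC1S3/TRAPPC6A had the lowest fold enrichment of the group, 3.44 each (1.95 to 5.70) with 13 reads over a background of 3.0. ADGRF3/SELENOI and WARS1/WDR25 had 3.68 each with 14 reads. STAT3/STAT5A had 3.76 with 22 reads over a background of 5.0, and this peak lay between the far ends of both genes, not at their starts. Each of these 5 peaks thus sat on a local background of 3.0 or more, above the median of 1.27 for the group. The widest peak, with 927 bp, lay at MFSD11 and the splicing factor SRSF2 and had a fold enrichment of only 8.23. It was followed by MKKS/SLX4IP with 757 bp, by CDC25C, a phosphatase that drives entry into mitosis, with FAM53C (734 bp, fold enrichment 5.40), by KHSRP/SLC25A41 (722 bp, 11.6) and by RBM15 with LOC124904276 (690 bp, 9.48). Of these 5 widest peaks, MKKS/SLX4IP was the only one also among the 12 strongest.

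As a group, the peaks at several genes were about as strong and as wide as those at 1 gene. Their median fold enrichment was 6.75 (6.56 to 7.15), with quartiles of 5.79 and 8.68 and a range from 3.44 to 54.8. The peaks at 1 gene had a median of 6.93 (6.78 to 7.18), with quartiles of 5.79 and 9.05, so the intervals of both medians overlapped. A fold enrichment of at least 10 was reached by 77 of the 497 peaks (15.5%, 12.4 to 19%), by 342 of the 2032 peaks at 1 gene (16.8%, 15.2 to 18.5%) and by 15.3% of all peaks. The median number of reads at the summit was 16 in both groups, with quartiles of 13 and 21.

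Width showed the same. The median was 230.0 bp (220.0 to 238), with a range from 146 to 927 bp, beside 232 bp (227 to 237) for the peaks at 1 gene, a difference of 1.5 bp. A width of at least 300 bp was found for 132 of the 497 peaks (26.6%, 22.7 to 30.7%) and for 562 of the peaks at 1 gene (27.7%, 25.7 to 29.7%), beside 23.5% of all peaks. The peaks farther than 1 kb from any gene end were narrower, with a median of 212 bp (210.0 to 215) and a share of 20.9% (19.5 to 22.2%) at 300 bp or more, while their median fold enrichment was 6.78. The local background solved from the deposited values had a median of 1.27 (1.17 to 1.31) in the group and 1.18 (1.17 to 1.24) at 1 gene. No peak of the 497 had a background above 10, which allows a share of up to 0.739%. At 1 gene it was 10 peaks (0.492%, 0.236 to 0.903%), so these intervals overlapped. Far from gene ends it was 102 peaks (2.79%, 2.28 to 3.38%), and among all peaks 1.81%.

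**Figure D2:**
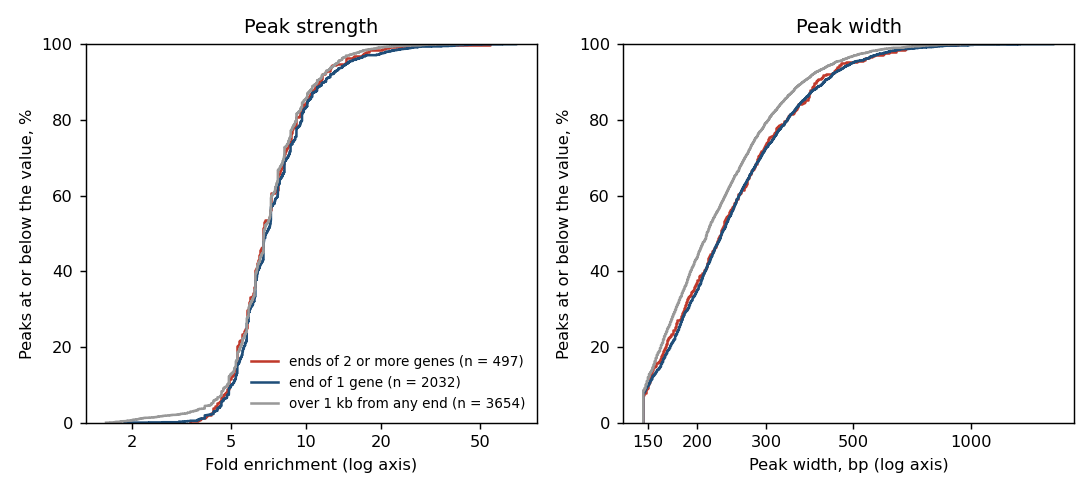
Cumulative share of peaks (y axis, percent) at or below a fold enrichment (left, log axis) or a width in bp (right, log axis), for 497 peaks at 2 or more genes, 2032 peaks at 1 gene and 3654 peaks over 1 kb from any end. The curves of strength run close together with medians of 6.75, 6.93 and 6.78, and in width the peaks far from gene ends lie to the left, with a median of 212 bp.

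Most of the peaks lay where genes start and not where they end. The strand of every gene was known for 374 of the 497 peaks (75.3%), since a promoter record gave a strand for 79.1% of protein-coding genes. Of these 374, 296 (79.1%, 74.7 to 83.2%) lay at starts on opposite strands, 20 (5.35%) at 2 starts on the same strand, 53 (14.2%, 10.8 to 18.1%) at a start of 1 gene and the far end of another, and 5 (1.34%) at far ends only. Peaks at 1 gene with a known strand were at the start in 1642 of 1698 cases (96.7%). The median fold enrichment was 6.78 (6.56 to 7.23) at opposite starts, 6.99 (5.79 to 8.81) at starts on the same strand, 6.75 (6.21 to 7.71) at a start and an end, and 6.45 (3.76 to 6.75) at ends only, with overlapping intervals. The 123 peaks with a gene of unknown strand had a median of 6.75 (6.27 to 7.23).

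The peaks at a start and an end included NUMBL, a homologue of the Notch regulator NUMB, whose start follows the end of COQ8B (16.9). SUPT4H1, which encodes a transcription elongation factor subunit, starts beyond the end of RNF43, a ubiquitin ligase that removes Wnt receptors, and this peak had 15.6 with its summit 106 bp upstream of the SUPT4H1 start. ZNF219 and TMEM253 had 14.5. The strongest of the peaks at starts on the same strand lay at MYCBP2 and LOC127898562 (14.4), and several others there were a gene and its own read-through, such as RBM14 with RBM14-RBM4 (12.5). Besides STAT3/STAT5A, the peaks at far ends were TIMM13/TMPRSS9 and HRC/PPFIA3 (6.75 each), HMGA1/SMIM29 (6.45) and PEX6 with GNMT and the read-through CNPY3-GNMT (6.34).

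Where genes start on opposite strands with a gap between the starts, the summit sat mostly in that gap. The gap between starts, counted as negative where the genes overlap, had a median of 141 bp with quartiles of -218 and 284 bp. The starts overlapped in 83 of the 296 peaks (28.0%), were 1 to 1000 bp apart in 207 (69.9%) and more than 1000 bp apart in 6 (2.03%). Starts here are the outermost ones annotated for a gene, so an overlap need not hold for every transcript. Among the 213 peaks with a gap, the summit was between the starts in 150 (70.4%, 63.8 to 76.5%), and with a gap of at least 100 bp in 141 of 184 (76.6%, 69.8 to 82.5%). Both starts were inside the peak in 61 of 296 cases (20.6%).

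The summit was a median of 85.0 bp (quartiles 43.0 and 154) from the nearer start and 282 bp (142 and 562) from the farther one. At 1 gene the summit was 126 bp (65 and 272) from the start, and it was upstream of it in 73.3% (71.1 to 75.5%) of 1642 peaks. The nearer start was within 100 bp in 58.1% (52.3 to 63.8%) of the 296 peaks, against 41.1% (38.7 to 43.5%) at 1 gene, where there is only 1 start to be near to. POLE/PXMP2 is an example with both starts inside the peak, 149 bp and 96 bp from the summit. At MGAT4B/SQSTM1, where starts overlap by 473 bp, the summit lay 96 bp upstream of MGAT4B and 569 bp inside SQSTM1.

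**Figure D3:**
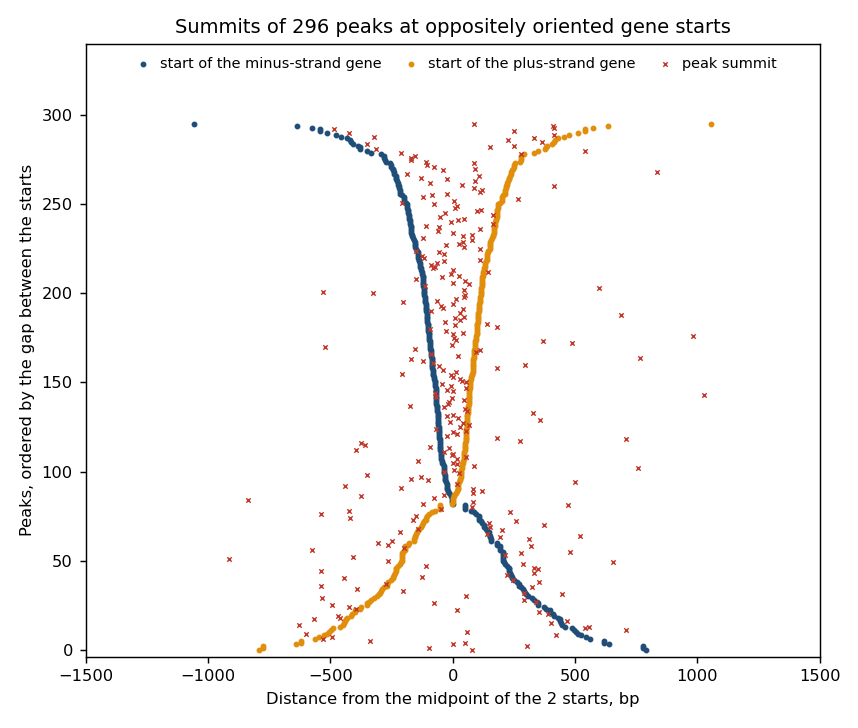
Each height on the y axis is 1 of 296 peaks at starts on opposite strands, ordered from the most overlapping starts (bottom) to the widest gap (top), and the x axis is the distance in bp from the midpoint of the starts. Dots mark the starts of the minus-strand and plus-strand genes and crosses the summits, which fell between the starts in 150 of the 213 peaks with a gap.

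Medians of strength and width were lowest where starts were 1 to 200 bp apart. The median intervals of the other ranges overlapped each other. The 100 peaks with starts 1 to 200 bp apart had the lowest median fold enrichment, 6.39 (5.95 to 6.75), and the smallest median width, 204 bp (183 to 225). The 88 peaks with starts 201 to 500 bp apart had 7.20 (6.47 to 7.85) and 262 bp (234 to 287), so their widths did not overlap in interval while their strengths did. Of the closer pairs 7.0% (2.86 to 13.9%) reached a fold enrichment of 10 and 16.0% (9.43 to 24.7%) a width of 300 bp, compared with 18.2% (10.8 to 27.8%) and 37.5% (27.4 to 48.5%) at 201 to 500 bp. The 83 peaks with overlapping starts had a median of 7.19 (6.75 to 8.11), with 24.1% (15.4 to 34.7%) at 10 or more. Their median width was 234 bp (208 to 264), which overlaps in interval with that at 1 to 200 bp. The 19 peaks with gaps of 501 to 1000 bp had 7.71 (5.79 to 9.16) and 235 bp (178 to 333). The 6 with wider gaps had 9.98 (4.83 to 21.6) and 302 bp (146 to 757).

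Seen from the genes, a start with a partner on the other strand had a peak within 1 kb more often than a lone start, but the window of a paired start also holds the promoter of its partner. Of 15843 gene starts with a known strand, 14.3% had a peak within 1 kb. For starts with an opposite start within 1 kb the share was 543 of 2162 (25.1%, 23.3 to 27.0%), and for starts with no other gene end within 2 kb it was 1476 of 11981 (12.3%, 11.7 to 12.9%), a ratio of 2.04. If 2 lone starts stood in 1 window and each had a peak independently at the lone share, 23.1% (22.1 to 24.2%) of such windows would hold a peak, and this interval overlaps that of the paired starts. With a pair counted as 2 separate promoters, a higher share at paired starts was therefore not shown. With a pair counted as 1 shared promoter, 25.1% (22.5 to 27.8%) of pairs had a peak near both starts, beside 12.3% of lone starts. The reading thus depends on how a pair is counted, which these data do not settle. Starts that had another gene end within 1 kb but no opposite start had a share of 14.6% (12.4 to 16.9%). The share was 24.1% where starts overlapped, 21.6% (19 to 24.4%) at gaps of 1 to 200 bp, 30.6% (26.8 to 34.5%) at 201 to 500 bp, 31.7% (23.5 to 40.8%) at 501 to 1000 bp and 17.2% (10.3 to 26.1%) at 1001 to 2000 bp. Of 1065 pairs of such starts, 267 had a peak within 1 kb of both and 2 had one near 1 start only, so the starts of a pair share their peaks and do not count as independent.

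Base composition moved with these shares. The promoters, taken as 250 bp before to 50 bp after the start, had a median GC content of 64.7% at paired starts and 61.7% at lone ones. Within promoters of under 50% GC, 11.7% (6.17 to 19.5%) of paired and 2.17% (1.61 to 2.87%) of lone starts had a peak. At 50 to 60% GC the shares were 23.4% (19.4 to 27.8%) and 8.95% (7.82 to 10.2%), at 60 to 70% they were 25.7% (22.9 to 28.7%) and 16.6% (15.3 to 17.9%), and at 70% and over 28.3% (24.5 to 32.4%) and 21.3% (19.7 to 22.9%). Per start, the paired share was higher in all 4 classes, by 9.48, 14.5, 9.11 and 7.05 percentage points from the lowest to the highest GC. Beside windows of 2 independent lone starts the order of the values changed with GC. The intervals of paired starts count both starts of a pair, so they are too narrow, and this change of order was not tested. The windows of 2 lone starts would give 4.30% (3.19 to 5.66%) under 50% GC and 17.1% (15 to 19.3%) at 50 to 60%, both values below the paired shares. They would give 30.5% (28.3 to 32.6%) at 60 to 70%, with overlapping intervals, and 38% (35.6 to 40.5%) at 70% and over, above the paired share. The activity of the genes was not measured in these data, and its part in these values was not tested.

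Several groups of housekeeping genes had many members at these peaks. Over all protein-coding genes, 948 of 20037 (4.73%) were at a peak of the group. The share was 11 of 67 (16.4%, 8.49 to 27.5%) for genes of mitosis and the kinetochore, the structure that joins chromosomes to the spindle. CENPX, a kinetochore and Fanconi anaemia complex protein, paired with LRRC45, had the highest value there (12.5, with 50 reads), followed by PMF1 (8.83) and by CDCA3 with the deubiquitinase USP5 (8.66, starts 864 bp apart). CENPK/PPWD1 and CENPM/SMIM45 had 7.23 each, and condensin subunits were present with MRPL51/NCAPD2 (6.78) and DCAF16/NCAPG (6.56). The lowest of the list was CENPP/NOL8 with 4.58.

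For RNA splicing the share was 11 of 74 genes (14.9%, 7.66 to 25%), with HNRNPH3/PBLD at 10.4, LRRC40/SRSF11 at 9.75 and 3 peaks at CBX5/HNRNPA1 of 7.69, 5.38 and 4.25. The mitochondrial ribosome had 11 of 77 (14.3%, 7.35 to 24.1%), from IGHMBP2/MRPL21 at 11.1 and HIRA/MRPL40 at 9.16 down to MRPS6/SLC5A3 at 5.79. DNA replication had 8 of 63 (12.7%, 5.65 to 23.5%). Next to POLE these were another subunit of the same polymerase, POLE3 (with C9orf43, 9.16), the helicase subunit MCM7 (with AP4M1, 6.79), thymidine kinase TK1 (with AFMID, 6.51) the origin recognition subunit ORC6 (with VPS35, 5.98) and CHTF18, a part of an alternative clamp loader (with RPUSD1, 5.79). CDC45, another part of the replicative helicase, had 2 peaks with UFD1, of 5.31 and 5.23. The helicase subunit MCM4 shared a peak of 5.23 with PRKDC, the DNA-dependent protein kinase.

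Heat shock and chaperonin genes had 7 of 69 (10.1%, 4.18 to 19.8%), among them the mitochondrial chaperonin pair HSPD1 and HSPE1, whose starts are 105 bp apart (7.18). DNA repair had 9 of 98 (9.18%, 4.29 to 16.7%), with ERCC1 at 14.5, where the peak lay near its far end. XRCC3/ZFYVE21 followed at 12.5, the DNA ligase gene LIG4 with ABHD13 at 8.68 and the thymine DNA glycosylase TDG with UQCC6 at 7.15. The respiratory chain had 8 of 102 (7.84%, 3.45 to 14.9%), the highest being NDUFAF8, an assembly factor of complex I, with TEPSIN at 16.8. The cytoplasmic ribosome had 6 of 86 (6.98%, 2.60 to 14.6%), including NDUFA7/RPS28 at 8.15. The intervals of these 4 lists hold the 4.73% of all genes, while those of mitosis, splicing, the mitochondrial ribosome and replication lie above it. Peaks of 1 gene only held 7 of 67 genes of mitosis, 11 of 74 of splicing and 6 of 77 of the mitochondrial ribosome. They also held 9 of 63 of replication and 14 of 69 heat shock and chaperonin genes, beside 1866 of 20037 in all. Genes of these lists were thus not confined to peaks of several genes. Members of a list can share a peak, and the lists were drawn up with earlier results of these data known.

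Genes of the ubiquitin system and the proteasome had 12 of 220 (5.45%, 2.85 to 9.33%), with UBE2C, the ubiquitin-conjugating enzyme of the anaphase-promoting complex, paired with DNTTIP1 at 11.6. That peak lay 988 bp from the far end of DNTTIP1, and the strand of UBE2C was unknown. Zinc finger genes had 17 of 608 (2.80%, 1.64 to 4.44%), led by ZNF219 and by ZNF646/ZNF668 at 14.5 each. No clustered histone gene out of 74 had such a peak, which allows up to 4.86%. Among 60 neuronal and neuroendocrine genes there were 3 (5.0%, 1.0 to 13.9%), among them SYT11 with GON4L at 5.95 and CELSR3 with SLC26A6 at 4.91, the latter at the end of CELSR3.

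The lists differ in how many of their genes have a partner start, so the shares were also taken over paired starts alone, where 25.1% of all had a peak. They were 9 of 22 (40.9%, 20.7 to 63.6%) for mitosis and kinetochore, 8 of 23 (34.8%, 16.4 to 57.3%) for the mitochondrial ribosome, 6 of 18 (33.3%, 13.3 to 59.0%) for DNA replication, 4 of 16 (25%) for splicing and 5 of 31 (16.1%, 5.45 to 33.7%) for DNA repair. Heat shock and chaperonin genes had 5 of 17 (29.4%), ubiquitin and proteasome genes 7 of 26 (26.9%), the respiratory chain 6 of 28 (21.4%) and the cytoplasmic ribosome 3 of 14 (21.4%). Zinc finger genes, lower over all genes, had 11 of 52 (21.2%, 11.1 to 34.7%) over paired starts. All of these intervals hold 25.1%. For clustered histone genes it was 0 of 25, which allows up to 13.7% if each start is counted separately. The starts of a pair share their peaks, so this limit is too low where both are on the list. A difference from 25.1% was therefore not shown.

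Around the summits that could be read, the typical E-boxes of NeuroD1 were not more frequent than in promoter windows of the same length. The 101 bp around the summit could be read for 311 of the 497 peaks and for 1089 peaks at 1 gene, and both strands were searched. Sequence was at hand only in promoter windows, from 250 bp before to 50 bp after a start. The readable summits therefore lie close to a start, and the other peaks are not covered by these shares. CAGATG or CATCTG was found in 8 windows (2.57%, 1.12 to 5.01%), against 3.86% (2.79 to 5.18%) at 1 gene and 4.94% (4.72 to 5.17%) in 35115 promoter windows of the same length, from 150 to 50 bp before the start. CAGCTG was found in 16 (5.14%, 2.97 to 8.22%), against 8.45% (6.86 to 10.3%) and 6.03%, and CATATG in 1. Any CANNTG, which includes all of these, was in 26% (21.3 to 31.3%), against 26.3% (23.7 to 29%) at 1 gene and 33.1% (32.6 to 33.6%) of promoters. Among the 43 of these peaks that reached 10-fold enrichment, none held CAGATG or CATCTG, which allows up to 8.22%, and 7 (16.3%, 6.81 to 30.7%) held CANNTG.

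By distance from the summit, CAGATG or CATCTG was densest within 25 bp, with 8 matches or 0.458 per 1000 positions (0.198 to 0.902). Farther out it had 0.178 to 0.290 per 1000 positions up to 200 bp and 0.0882 (0.0107 to 0.319) at 201 to 290 bp, with overlapping intervals. CAGCTG had 0.343 (0.126 to 0.747) within 25 bp, from 6 matches, and 0.814 (0.445 to 1.36) at 26 to 50 bp. At 1 gene, CAGCTG had 1.07 (0.827 to 1.36) within 25 bp and 0.498 (0.365 to 0.665) at 101 to 150 bp, intervals that do not overlap. Its intervals at 51 to 100 bp, 0.718 (0.572 to 0.890), and at 201 to 290 bp, 0.682 (0.492 to 0.922), do overlap that within 25 bp. Within 25 bp the CAGCTG density of the group, from only 6 matches, was thus below that at 1 gene. At 26 to 50 bp the value at 1 gene was 0.956 (0.728 to 1.23), with an interval that overlaps that of the group. For CAGATG or CATCTG within 25 bp the value at 1 gene was 0.430 (0.283 to 0.626).

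In whole promoter windows of 300 bp, CANNTG was in 58.9% (55.0 to 62.7%) of 645 promoters at the peaks of several genes, in 56.7% (54.1 to 59.3%) of 1423 at peaks of 1 gene and in 68.7% of 35116 in all. CAGATG or CATCTG was in 7.44% (5.54 to 9.75%), 9.42% (7.95 to 11.1%) and 14.7%, while CAGCTG was in 18.3%, 18.5% and 17.9%. The windows at the summits were richer in GC than promoters at large, with a median of 67.3% in the group, 70.3% at 1 gene and 59.4% in all promoters, and its part in these shares was not tested.

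Letters of some other kinds were more common at the summits than in promoters at large, and were chosen for counting after the windows had been read. The part of the higher GC content of the summit windows in these shares was not tested either. CCAAT or ATTGG was in 115 of the 311 windows (37.0%, 31.6 to 42.6%), in 41.2% (38.3 to 44.2%) at 1 gene and in 18.4% (18 to 18.8%) of promoters. CCGCCC or GGGCGG, the GC box, was in 48.9% (43.2 to 54.6%), 55.3% (52.3 to 58.3%) and 26.8%. AAACCCGG or CCGGGTTT was in 5 windows (1.61%, 0.524 to 3.71%), in 2.66% (1.79 to 3.8%) at 1 gene and in 0.313% of promoters. Among windows under peaks of 10-fold enrichment or more it was in 3 of 43 windows (6.98%, 1.46 to 19.1%) and in 10% (6.22 to 15%) of 200 windows at 1 gene. For each of these letters the share of the group was below that at 1 gene, with overlapping intervals. Such an overlap does not show that the shares are equal, and the difference was not tested.

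The limit of 1 kb cut through few peaks, but the strongest of the group, EPS15/OSBPL9, was among those close to it, as was RAD51AP2/VSNL1. In 26 of the 497 the second gene end was 901 to 1000 bp away, with a median fold enrichment of 6.65, and 12 peaks just outside had theirs at 1001 to 1100 bp, with a median of 7.76. The 88 peaks that held a second end inside had a median of 8.24. A wide peak reaches more gene ends than a narrow one, so this last value is not independent of width.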

How the data were processed

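The data were 1 peak list for NeuroD1 ChIP-seq in IMR-32 cells, from 1 ChIP library (6183 peaks). The submitters' processing notes name BWA 0.7.17, MACS2 2.2.7 and hg38, while the peak names carry macs3. The control sample and the q-value threshold used for calling are not given in the sources used here. For each peak the authors deposited the position, the summit offset, a score (the −log10 q-value multiplied and cut to a whole number), the fold enrichment (a ratio of pileup to local background, each with 1 added), the −log10 p-value and q-value, and a last column, the fold enrichment divided by the width. The authors' score was not used.

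Members, gene lists and comparisons were chosen with earlier results of these data known. Genes were the protein-coding genes of RefSeq GRCh38.p14 (20037), and strand came from its promoter table. Reads and local background at each summit were solved from the deposited fold enrichment and −log10 p with a weight of 0.98 per read, inferred from the list itself. This gave 6182 of 6183 peaks, 7 of them with more than 1 solution, and when tested on simulated data it gave back the reads of 100.0% of 1000 peaks. The simulated peaks were made with the same formula that is solved, so this checks the calculation only. The highest read counts and backgrounds of the data lay outside the simulated range. The total depth of the library is unknown, so the reads at the summits (median 17.0 over all peaks) show the precision. Intervals are at 95%: Poisson for reads, exact Clopper-Pearson for shares and ranks for medians. There was no test, since there was 1 library.

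The genes named are those of the 12 strongest, 5 widest and 5 weakest peaks, of peaks with 3 or more genes and, on each gene list, the strongest. The genes of the printed sequences, of the peaks at far ends or at the same strand, and the single summit examples were chosen after their values were seen. The value of 1 listed gene is not reported here. Motifs were searched by their letters on both strands. The alternatives were the summit in place of the interval, distances of 0.5 and 2 kb, a −log10 q or a fold enrichment of at least 5, other gene models, and leaving out peaks with a background above 10. Leaving out LOC genes, the alternatives for paired starts and the value for 2 lone starts in 1 window were chosen after seeing the data. Calculations ran in Python 3.11.15 with scipy 1.17.1, numpy 2.4.6 and pandas 2.3.3, and figures were drawn with matplotlib 3.10.9.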

Additional observations from a re-analysis of the deposited data

How the results depend on the processing

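The count of 497 peaks was between 366 and 624 under 8 alternatives and rose to 1107 with all RefSeq genes, which adds non-coding genes. The difference in median fold enrichment from peaks at 1 gene, -0.17, ranged from -0.26 to 0.00. The difference in median width, -1.5 bp, was between -6.00 and 2.5 bp, and 8.0 bp with all RefSeq genes, where the cause was not tested. The difference in local background, 0.09, was 0.00 at 0.5 kb and 0.00 at a fold enrichment of at least 5, and the cause was not tested. The share of peaks at 2 starts, 84.5%, was 88.3% at 0.5 kb, 75.2% at 2 kb and 91.4% with all RefSeq genes, and 83.7 to 84.5% otherwise. The difference in the share of promoters with an E-box, 2.2 percentage points for CANNTG, was -1.97 for CAGATG or CATCTG, -0.188 for CAGCTG and -0.715 for CATATG. The ratio of paired to lone starts with a peak, 2.04, was 1.96 to 2.05. With each pair counted as 2 separate promoters a difference was not shown. No paired analysis was possible because there was 1 ChIP library. The depth, a median of 16 reads at the summit, leaves wide intervals on single peaks: the lowest of the 497 had 9 reads, and most neighbours in rank cannot be told apart.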
